A study of Rattus norvegicus with 6 samples.

Results

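The steroid receptor and steroid enzyme genes described here are a set of 9, chosen by symbol: the receptors Nr3c1, Nr3c2, Esr1 and Esr2, the enzymes Hsd11b1, Hsd11b2, Srd5a1 and Srd5a2, and the receptor co-chaperone Fkbp5. Of these, 7 were measured with 1 probe set each that carried exactly 1 gene symbol, among 18166 genes in all, and Srd5a1 and Srd5a2 were not analysed here. Transcript levels came from the epididymis of Sprague-Dawley rats aged 48 days, with no genetic change or treatment stated for either group. The tissue was parted with magnets into basal cells, the small epithelial cells on the basement membrane of the duct, and non-basal cells, meaning everything else. Total RNA was read on Affymetrix RaGene 2.0 ST arrays, 3 for the basal and 3 for the non-basal group, and values are log2 expression after RMA normalization. Nothing in the labels ties an array to a single rat or says whether tissue was pooled, so p-values measure the spread between these samples only, and that spread may be technical.

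Steroid hormones cross the cell membrane and bind receptors that act as transcription factors. The glucocorticoid receptor (Nr3c1) and the mineralocorticoid receptor (Nr3c2) are close relatives that share ligands, and enzymes on either side of them set how much active corticosteroid a cell sees: Hsd11b1 mostly regenerates active glucocorticoid from its inert ketone, and Hsd11b2 inactivates it. The oestrogen receptors alpha (Esr1) and beta (Esr2) are encoded by separate genes, and oestrogen signalling is known to support fluid reabsorption in the male tract. Unliganded receptors are held by Hsp90 and its co-chaperones, among which Fkbp5 lowers glucocorticoid receptor sensitivity and is itself a hormone-induced target of the glucocorticoid, androgen and progesterone receptors.

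For 6 of the 9 genes the RefSeq table of rat assembly GRCr8 held a stretch upstream of a transcription start. The 250 bases before the start are printed for Esr1 and Esr2 so that the receptor pair can be set side by side, and for Fkbp5, since it is a receptor target. They lie at chr1:43641845-43642094 on the plus strand, chr6:100644710-100644959 on the minus strand and chr20:6543556-6543805 on the minus strand. Capitals mark matches, on either strand, to the oestrogen response element GGTCANNNTGACC, its repeated core GGTCA, the glucocorticoid response element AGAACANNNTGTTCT, its repeated core AGAACA, the GC box GGGCGG, the CCAAT box and the TATA box TATAAA. A full element contains its core, so these matches overlap.
Esr1: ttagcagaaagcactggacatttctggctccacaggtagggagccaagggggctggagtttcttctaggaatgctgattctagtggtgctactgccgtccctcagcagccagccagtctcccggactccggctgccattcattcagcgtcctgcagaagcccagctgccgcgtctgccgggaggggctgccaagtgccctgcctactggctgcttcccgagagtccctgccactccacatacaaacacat
Esr2: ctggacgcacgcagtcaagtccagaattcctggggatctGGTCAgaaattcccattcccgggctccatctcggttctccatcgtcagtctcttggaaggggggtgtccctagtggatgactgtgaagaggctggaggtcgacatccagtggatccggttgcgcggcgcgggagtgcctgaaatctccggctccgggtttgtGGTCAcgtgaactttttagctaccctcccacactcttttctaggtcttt
Fkbp5: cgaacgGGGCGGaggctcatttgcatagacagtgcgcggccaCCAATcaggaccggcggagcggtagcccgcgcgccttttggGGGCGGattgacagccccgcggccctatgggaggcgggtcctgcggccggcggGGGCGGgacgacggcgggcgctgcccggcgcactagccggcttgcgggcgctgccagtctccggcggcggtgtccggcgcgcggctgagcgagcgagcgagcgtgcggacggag
The Esr1 stretch, with a GC content of 59.6%, held none of the 7 motifs. The Esr2 stretch held 2 oestrogen cores and no other motif. The Fkbp5 stretch, with a GC content of 76%, held 3 GC boxes and 1 CCAAT box and no hormone core. Among 33469 stretches of the same length, 35.4% held the oestrogen core, 17.5% the glucocorticoid core, 30.5% the GC box, 34% the CCAAT box and 12.9% the TATA box, whereas a full oestrogen or glucocorticoid element was found in 0.0239% and 0.012%. A match describes letters only, and these windows say nothing of more distant elements.

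Array medians were 6.63 to 6.7. RMA brings them close together, so they do not show how alike the samples were. The number of arrays sets the precision. By limma, at the threshold given below, each of 12 measured marker genes of basal epithelium was higher in the basal fraction. All 16 fibroblast markers, 10 of 12 smooth muscle and pericyte markers, 11 of 12 endothelial markers and 9 of 16 lymphocyte markers were lower, the last count being 5 without basal replicate 1 or 2 or without non-basal replicate 2 or 3. Of 12 principal cell markers 1 was lower, a number that was 6 without basal replicate 3 and 8 with both arrays that stood apart left out. Their mean was 10.21 to 11.08 on the basal and 11.01 to 11.29 on the non-basal arrays. Of 11 narrow and clear cell markers 1 was higher and 0 lower, with means of 8.64 to 8.92 against 8.63 to 9.17. With 1 array left out, 0 to 1 of these were higher and 0 to 1 lower. Signal of these other epithelial cells was thus present in both fractions. No germ cell or testicular Leydig and Sertoli marker passed. Basal replicate 3 and non-basal replicate 1 stood apart from the other arrays of their fractions on the first 2 principal components, and results that rest on them are also given without them. Both fractions are bulk samples, in which fewer cells of a type and less RNA per cell cannot be told apart.

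The comparison asked how transcripts of steroid reception and local steroid conversion differ between the basal and the non-basal fraction. Hsd11b1 transcript was 4.84-fold lower in the basal fraction (95% interval 2.82 to 8.32) and Esr1 was 1.74-fold lower (1.25 to 2.44). The other measured members, Nr3c1, Nr3c2, Esr2, Hsd11b2 and Fkbp5, did not pass the test. With limma and Benjamini-Hochberg adjustment over all genes at 0.05, 2 of the 7 measured members were lower and 0 were higher, and 3 lay at an unadjusted p under 0.05. Over all genes 7.14% were lower, 7.71% were higher and 14.9% passed in either direction. The median log2 difference, basal minus non-basal, was -0.03 over the 7 members and 0.00343 over all genes. The fractions did not overlap for 4 of the 7 members, against 32.9% of all genes. Only Hsd11b1 was lower without basal replicate 1 or with non-basal replicate 1 or 2 left out, and no member passed when non-basal replicate 3 was left out. With both arrays that stood apart left out, the lower members were Hsd11b1 and Fkbp5.

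**Figure D1:**
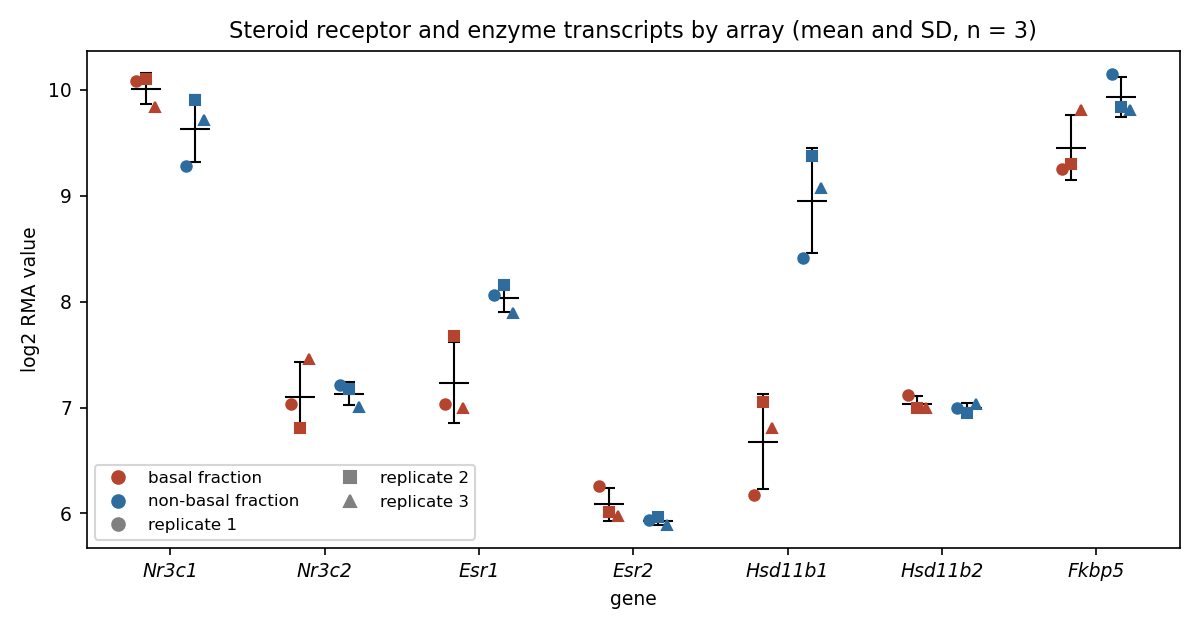
Log2 RMA value (vertical axis) of the 7 measured members on each array, with basal arrays in red, non-basal arrays in blue and 1 symbol per replicate number. Black marks give the mean and SD of 3 arrays. The basal and non-basal values of Hsd11b1 lie 1.36 log2 units apart at their closest, whereas those of Nr3c1, Nr3c2 and Hsd11b2 overlap. Heights of different genes come from different probes and are not comparable.

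Nr3c1, the glucocorticoid receptor gene, read 10.08, 10.10 and 9.84 on the basal arrays, in the order of their replicate numbers, and 9.28, 9.90 and 9.71 on the non-basal arrays. Non-basal replicate 1 was the lowest of all, and basal replicate 3 fell below non-basal replicate 2, so the fractions overlapped. The log2 difference was 0.38 ± 0.172 (SE, n = 3 per fraction; limma adjusted p = 0.206), with a 95% interval from -0.04 to 0.80. Leaving out non-basal replicate 1 brought it to 0.20, and no alternative made it pass. On the same arrays the mean of the basal epithelial markers was 10.80, 10.80 and 10.47 in the basal fraction and 7.60, 8.40 and 8.42 in the non-basal fraction, so that it too was lowest in non-basal replicate 1. This was not particular to basal markers. Within the non-basal fraction, the fibroblast, smooth muscle, lymphocyte, macrophage and adipocyte list means were lowest in replicate 1 as well. The endothelial and principal cell means were highest there. The part of any of these cell types in the Nr3c1 values was not tested.

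Nr3c2, the mineralocorticoid receptor gene, read 7.04, 6.81 and 7.46 in the basal arrays and 7.21, 7.18 and 7.003 in the non-basal arrays. Both its lowest and its highest value were basal. The log2 difference was -0.03 ± 0.173 (limma adjusted p = 0.93; 95% interval -0.45 to 0.39), and its sign changed when single arrays were left out.

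Within each array, the Nr3c1 value minus the Nr3c2 value was 3.04, 3.30 and 2.38 on the basal arrays and 2.08, 2.72 and 2.71 on the non-basal arrays, which overlapped. This change of the balance, 0.41 ± 0.347 (SE), did not exceed the spread between arrays (two-sided exact permutation p = 0.4, and 0.4 adjusted over the 3 pairs tested). With 3 arrays against 3 the smallest p that this test allows is 0.1. The shift was 0.19 without non-basal replicate 1, 0.21 without basal replicate 2 and 0.67 without basal replicate 3. The size of the balance itself compares different probe sets and is not read here.

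Esr1, which encodes oestrogen receptor alpha, read 7.03, 7.68 and 6.99 in the basal arrays and 8.06, 8.15 and 7.89 in the non-basal arrays. All non-basal values lay above all basal ones, the closest being basal replicate 2 and non-basal replicate 3, which were 0.215 apart. The means were 7.23 ± 0.385 (SD, n = 3) and 8.04 ± 0.133 (n = 3), and the log2 difference was -0.80 ± 0.199 (SE; limma adjusted p = 0.047). This call lay near the threshold and held in 1 of 6 fits with 1 array left out. The adjusted p was 0.158 without basal replicate 1, 0.0979 without basal replicate 3, 0.103, 0.151 and 0.121 without non-basal replicates 1 to 3, and 0.0214 without basal replicate 2. It was 0.176 without basal replicate 3 and non-basal replicate 1 together, where the difference was -0.67. Over all probe sets, named or not, the adjusted p was 0.0752.

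Esr2, which encodes oestrogen receptor beta, read 6.26, 6.01 and 5.98 in the basal arrays and 5.94, 5.97 and 5.89 in the non-basal arrays. The basal values lay just above the non-basal ones, with a gap of 0.00842 between basal replicate 3 and non-basal replicate 2, and basal replicate 1 was the highest. The log2 difference of 0.15 ± 0.0928 did not pass (limma adjusted p = 0.324; 95% interval -0.07 to 0.38). Without basal replicate 1 it was 0.06. Esr2 was the one measured member whose mean stayed under 7 in both fractions. All its values lay below the array medians of 6.63 to 6.7, and whether they exceeded background was not tested.

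The Esr1 value minus the Esr2 value of the same array was 0.77, 1.66 and 1.01 in the basal and 2.13, 2.18 and 2.00 in the non-basal fraction. The fractions did not overlap. The balance shifted by -0.96 ± 0.273 (SE), which reached the smallest p the exact permutation test allows (two-sided p = 0.1, and 0.15 adjusted over the 3 pairs). It ranged from -1.21 to -0.77 with 1 array left out.

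Hsd11b1, the enzyme that regenerates active glucocorticoid, read 6.18, 7.05 and 6.81 in the basal arrays and 8.41, 9.38 and 9.07 in the non-basal arrays. The highest basal value was 1.36 below the lowest non-basal value, a gap wider than the range within either fraction. The basal values lay around the array medians of 6.63 to 6.7, and whether they exceeded background was not tested. The means were 6.68 ± 0.451 (SD, n = 3) and 8.95 ± 0.496 (n = 3), which gave a difference of -2.27 ± 0.32 on the log2 scale (SE; adjusted p = 0.00781 by limma). The call held in 5 of 6 fits with 1 array left out, with differences of -2.55 to -2.02, and the adjusted p was 0.0523 without non-basal replicate 3. Without basal replicate 3 and non-basal replicate 1 together the difference was -2.61 (adjusted p = 0.0185).

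Hsd11b2, which inactivates glucocorticoid and so shields the mineralocorticoid receptor in aldosterone-responsive epithelia, read 7.115, 6.997 and 6.9997 in the basal arrays and 6.9997, 6.945 and 7.04 in the non-basal arrays. These were the most even values of the set, and the fractions overlapped. They lay not far above the array medians of 6.63 to 6.7. Whether this probe set read above background was not tested. The log2 difference was 0.04 ± 0.0665 (limma adjusted p = 0.697), with a 95% interval from -0.12 to 0.21. It was 0.0050 without basal replicate 1, was 0.02 when non-basal replicate 2 was dropped, and lay at 0.05 to 0.06 with any other array left out.

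The Hsd11b1 value minus the Hsd11b2 value was -0.94, 0.05 and -0.19 in the basal arrays and 1.41, 2.43 and 2.04 in the non-basal arrays, without overlap. The shift of -2.32 ± 0.422 (SE) therefore came almost wholly from the Hsd11b1 term, and it had the smallest exact permutation p possible (two-sided p = 0.1, and 0.15 adjusted over the 3 pairs). With 1 array left out it ranged from -2.59 to -2.03.

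**Figure D2:**
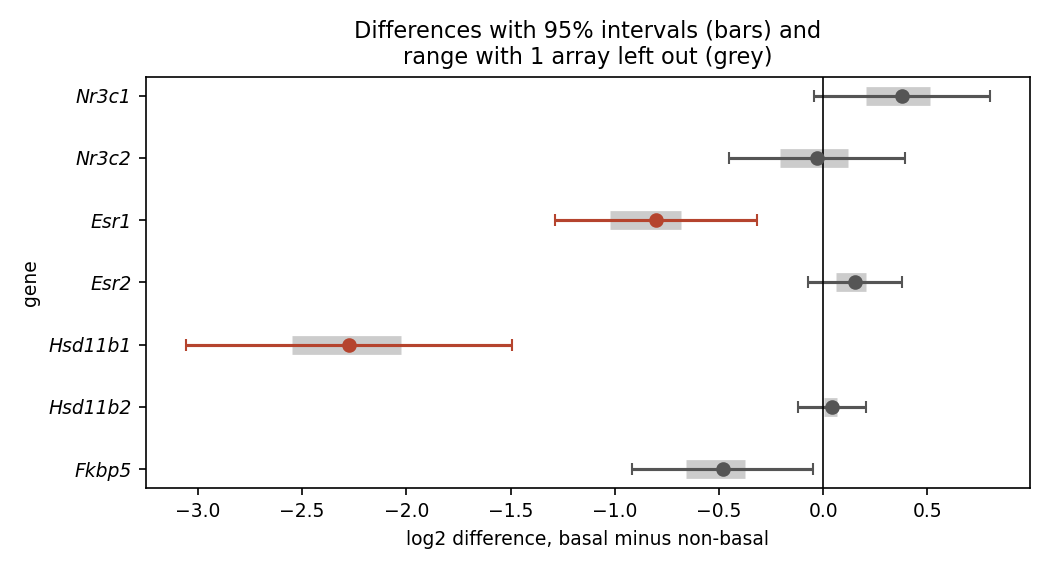
Log2 difference, basal minus non-basal (horizontal axis), of each measured member, with bars for the 95% interval of limma and grey bands for the range when 1 array was left out. Red marks the 2 genes past an adjusted p of 0.05. The interval of Hsd11b1 runs from -3.06 to -1.49 and that of Hsd11b2 from -0.12 to 0.21.

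List means of stromal, vessel and lymphocyte markers were lower in the basal fraction, as Hsd11b1 and Esr1 were. Their order within a fraction differed from list to list. The mean of the 16 fibroblast markers was 7.05, 7.46 and 8.60 on the basal and 10.55, 11.69 and 11.50 on the non-basal arrays. In the non-basal fraction, fibroblast markers and Hsd11b1 were both lowest in replicate 1 and highest in replicate 2. Esr1 was highest there in replicate 2 too, but lowest in replicate 3. In the basal fraction, the markers were highest in replicate 3, whereas Hsd11b1 and Esr1 were highest in replicate 2. Pdgfra, a growth factor receptor that defines fibroblasts, read 6.69, 7.28 and 8.99 in the basal arrays and 11.18 to 11.77 in the non-basal arrays. All 16 markers were lower in the basal fraction, a count that was 6 when either basal replicate 2 or non-basal replicate 3 was left out, and 7 when non-basal replicate 2 was.

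List means ran from 8.03 to 8.69 in the basal and from 10.03 to 10.20 in the non-basal fraction for 12 smooth muscle and pericyte markers, from 6.77 to 7.09 and from 8.16 to 8.39 for 12 endothelial markers, and from 5.94 to 6.30 and from 7.13 to 7.80 for 16 lymphocyte markers. The smooth muscle and lymphocyte means were highest in basal replicate 3 and in non-basal replicate 2. By contrast, the endothelial mean was lowest in replicate 2 of both fractions, where Hsd11b1 and Esr1 were highest. Hsd11b1 is also a gene of fat cells. Of 13 adipocyte markers 4 were lower and 1 was higher, and the list means were 6.46 to 6.55 against 6.67 to 6.84. The lower ones were the glucose transporter Slc2a4 at -1.28, the lipase Lipe at -0.71, the nuclear receptor Pparg at -0.66 and the lipid droplet protein Plin4 at -0.53 (limma adjusted p = 0.0048, 0.00644, 0.0253 and 0.0373), and the higher one was Car3 at 0.82 (adjusted p = 0.0291). Adipoq and Plin1 had log2 differences of -0.14 and -0.05 (adjusted p = 0.431 and 0.645). On every array both genes read below that array's median, and whether they exceeded background was not tested. The count of lower adipocyte markers was 2 without basal replicate 1 or 2 or without non-basal replicate 2 or 3, and no adipocyte marker was higher when any array other than basal replicate 3 was left out. In the list of 15 markers for macrophages and dendritic cells 2 passed, both lower, and the list means overlapped, at 8.41, 8.81 and 8.35 on the basal and 8.46, 9.60 and 9.49 on the non-basal arrays. Within both fractions this mean was highest in replicate 2, as Hsd11b1 and Esr1 were. The count of lower markers in this list was 10 without non-basal replicate 1, 9 with both arrays that stood apart left out, 1 without basal replicate 2 and 0 in the other 4 fits with 1 array left out. The part of these cell types in the differences of Hsd11b1 and Esr1 was not tested.

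**Figure D3:**
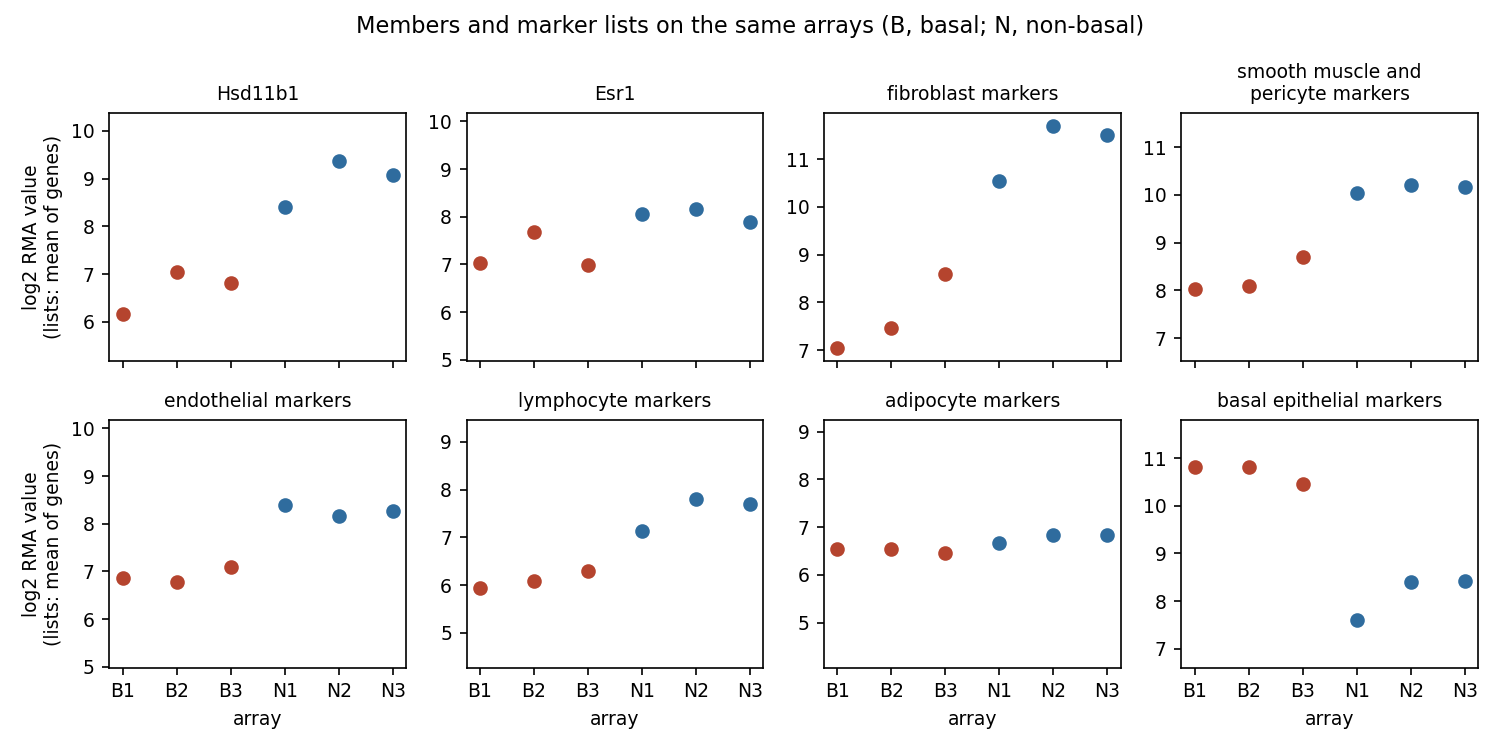
Log2 RMA values of Hsd11b1 and Esr1, and mean values of 6 marker lists, on the 3 basal (B, red) and 3 non-basal (N, blue) arrays; every panel spans the same number of log2 units. Within the basal fraction the fibroblast mean runs from 7.05 to 8.60 and Hsd11b1 from 6.18 to 7.05, around the array medians. Within the non-basal fraction both are lowest in replicate 1 and highest in replicate 2. The macrophage and dendritic cell list is not drawn.

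Among named genes outside the set, those closest to Hsd11b1 in profile, by the root mean square distance between mean-centred log2 values over the 6 arrays, were Has2, a hyaluronan synthase (distance 0.137), P2ry10, a receptor of lymphoid cells (0.153), and Ccl21, a chemokine of lymphatic vessels (0.166). Ccl21 has near-identical copies in rodents, so its assignment is uncertain. For Esr1 the closest were Abcb1a, the P-glycoprotein drug pump (0.121), Serf1 (0.124) and Hacd1, a fatty acid elongation enzyme (0.136). These were ranked among 17468 genes and describe likeness over these 6 arrays only.

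Fkbp5, the co-chaperone and receptor target, read 9.25, 9.30 and 9.80 in the basal arrays and 10.15, 9.84 and 9.81 in the non-basal arrays. Basal replicate 3 came within 0.00789 of the lowest non-basal value, and the other basal arrays lay well below it. The log2 difference was -0.48 ± 0.177 (SE; limma adjusted p = 0.132, unadjusted p = 0.0345), with a 95% interval from -0.91 to -0.05. Without basal replicate 3 the difference was -0.66 and passed (adjusted p = 0.026). It also passed with array weights, which let arrays that scatter more count less (-0.53, adjusted p = 0.0245), and without basal replicate 3 and non-basal replicate 1 together (-0.55, adjusted p = 0.00887). On the same arrays the mean of 12 principal cell markers was 10.21, 10.58 and 11.08 in the basal fraction and 11.29, 11.04 and 11.01 in the non-basal fraction. Both Fkbp5 and this mean were lowest in basal replicate 1, next lowest in basal replicate 2 and highest in non-basal replicate 1. The part of principal cells in the Fkbp5 values was not tested.

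The lists below give the other genes of the pathway, with 14.9% of all genes passing as the background. The list of receptor chaperones and co-chaperones covers the Hsp90 and Hsp70 systems and also holds the heat shock factor Hsf1. Among its 15 measured genes, 5 were higher and 0 lower, 10 missed the threshold, and the median log2 difference was 0.27. Hsp90ab1, the constitutive Hsp90, was higher by 0.59 ± 0.0734 (SE; limma adjusted p = 0.00558), the Hsp70 partner Dnajb1 by 0.70 ± 0.112 (adjusted p = 0.0118), the cyclophilin co-chaperone Ppid by 0.38 ± 0.0613 (adjusted p = 0.012) and the heat shock factor Hsf1 by 0.33 ± 0.0735 (adjusted p = 0.0333). Fkbp4, which competes with Fkbp5 for Hsp90, had a difference of 0.27 ± 0.134 (adjusted p = 0.239). The Hsp90ab1 call held in all 6 fits with 1 array left out, the Hsf1 call in 1. The list's count of higher genes was 1 without basal replicate 1 or 2 or without non-basal replicate 2 or 3, 9 without basal replicate 3, and 8 with both outlying arrays left out.

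Of 27 nuclear receptor coregulators and pioneer factors, 4 were higher and 1 lower, and 22 did not pass (median 0.14). Foxa1, a pioneer factor that opens chromatin for oestrogen and androgen receptors, was higher by 1.27 ± 0.166 (limma adjusted p = 0.00631). Ncoa7, an oestrogen receptor-associated coactivator, was higher by 1.06 ± 0.111 and Trim24 by 0.53 ± 0.0898, and the zinc finger factor Gata2 was 3.55-fold lower (-1.83 ± 0.114, adjusted p = 0.00176). Gata2 works with the androgen receptor in prostate and is also a gene of endothelial and blood cells. The number of higher coregulators was 2 when either basal replicate 2 or non-basal replicate 3 was left out, 7 without basal replicate 3, and 8 with both outlying arrays left out, where 3 were lower.

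Among 20 other steroid-type and related receptors, 2 were higher and 3 lower, and 15 did not pass (median -0.08). The orphan receptors Nr2f1 and Nr2f2 were lower at -2.35 ± 0.337 and -1.43 ± 0.221 (limma adjusted p = 0.00825 and 0.0107), and Nr2f2 is known from vein endothelium and stroma. The membrane progestin receptor gene Paqr5 was higher by 0.82 ± 0.154 and the progesterone receptor membrane component Pgrmc1 was lower at -0.59 ± 0.123. Pgr, the nuclear progesterone receptor, had a difference of 0.15 ± 0.114 (adjusted p = 0.426). Its means of 5.07 and 4.92 lay below the array medians, and whether they exceeded background was not tested. No gene of this list was lower when either basal replicate 2 or non-basal replicate 3 was left out, and none was higher without basal replicate 1 or 2 or without non-basal replicate 2 or 3.

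Transcripts of corticosteroid-responsive genes went both ways. Of 32 glucocorticoid-induced genes, 4 were higher and 5 lower, and 23 did not pass (median -0.06). Anxa1, an anti-inflammatory phospholipid-binding protein, was higher by 1.05 ± 0.152 (limma adjusted p = 0.00847) and Zbtb16, a zinc finger target of the receptor, by 0.83 ± 0.145 (adjusted p = 0.0157). Bcl6, a transcriptional repressor, the gluconeogenic enzyme Pck1 and the sulfotransferase Sult1a1 were lower at -0.83 ± 0.108, -0.83 ± 0.128 and -0.99 ± 0.138. Of the genes that did not pass, Tsc22d3, which encodes GILZ, had a difference of -0.39 ± 0.136 (limma adjusted p = 0.117). The clock gene Per1 had -0.29 ± 0.1 (adjusted p = 0.115) and Sgk1 0.26 ± 0.0822 (adjusted p = 0.092). For each of Tsc22d3, Per1 and Sgk1 the unadjusted p was under 0.05. Without basal replicate 2 the list had 0 higher and 2 lower genes, without basal replicate 1 it had 1 and 4, without non-basal replicate 2 or 3 it had 2 higher genes with 3 and 2 lower, and with both outlying arrays left out it had 7 and 7.

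Of 17 genes of aldosterone-regulated sodium transport, 3 were higher and 1 lower, and 13 did not pass (median 0.06). The 3 were Scnn1g, the gamma subunit of the epithelial sodium channel, higher by 1.40 ± 0.164 (limma adjusted p = 0.00475), Nedd4l, a ubiquitin ligase that removes the channel from the membrane, by 0.94 ± 0.112 (adjusted p = 0.0049), and Cnksr3, an aldosterone-induced scaffold, by 0.74 ± 0.0917 (adjusted p = 0.00538). Usp2, a deubiquitinase that opposes Nedd4l, was lower at -1.43 ± 0.176 (adjusted p = 0.00535). All 4 calls held in each of the 6 fits with 1 array left out. The list had 4 higher and 2 lower genes without non-basal replicate 1, and 5 and 3 with both outlying arrays left out. The alpha and beta subunits, Scnn1a and Scnn1b, had differences of -0.20 ± 0.211 and -0.29 ± 0.0928 and did not pass. Sgk1 and Tsc22d3 stand in this list too.

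Few other steroid enzymes passed. Of 34 measured genes of steroid synthesis and conversion, 0 were higher and 2 lower, and 32 did not pass (median -0.11), and 10 lay at an unadjusted p under 0.05. Cyp7b1, an oxysterol and steroid hydroxylase, was 3.91-fold lower (-1.97 ± 0.116, limma adjusted p = 0.00176) and Sult1a1 1.99-fold lower, and both calls held in each of the 6 fits with 1 array left out. Hsd17b10 and Hsd17b11, which interconvert active and inactive steroids, had differences of 0.45 ± 0.132 and -0.59 ± 0.177 (adjusted p = 0.0782 and 0.0837). H6pd, which supplies the cofactor that Hsd11b1 needs, had a difference of -0.40 ± 0.13 (adjusted p = 0.102). Srd5a3, the measured relative of the steroid reductases, differed by -0.18 ± 0.096 (adjusted p = 0.264), and aromatase, Cyp19a1, by -0.07 ± 0.0915 (adjusted p = 0.655). The Cyp19a1 means of 4.62 and 4.69 lay below the array medians, and whether they exceeded background was not tested. With both outlying arrays left out, 7 genes of this list were lower and 1 was higher.

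Of 24 androgen-dependent epididymal and prostatic genes, 1 was higher and 2 lower, and 21 did not pass (median -0.29). Tmem100, which is also an endothelial gene, was lower at -2.59 ± 0.453 (adjusted p = 0.0156 by limma). The secreted defensin-like protein Spag11a was lower at -1.08 ± 0.223 (adjusted p = 0.0267), whereas Ndrg1 was higher by 0.42 ± 0.0952 (adjusted p = 0.0368). The Ndrg1 call held in 2 of 6 fits with 1 array left out, with an adjusted p of up to 0.133, and was lost without basal replicate 1 or 2, without non-basal replicate 2 or 3, after centring each array on its median and over all probe sets. The number of higher genes was then 0, and it was 3 without non-basal replicate 1 or with both outlying arrays left out. The secreted carboxylesterase Ces5a had a difference of -0.56 ± 0.159 (adjusted p = 0.0696). Lcn5, Lcn8, Crisp1, Adam7, Spag11a, Rnase9, Cst8, Cst11 and Ces5a are also among the principal cell markers, so the lists share values. Without basal replicate 3, 8 genes of the androgen-dependent list were lower, and 10 were lower with both outlying arrays left out. None was lower without basal replicate 1 or 2 or without non-basal replicate 2 or 3.

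Of 23 oestrogen-linked fluid transport and response genes, 2 were higher and 5 lower, and 16 did not pass (median -0.24). Igf1, a growth factor made largely by stromal cells, was 14.8-fold lower (-3.89 ± 0.506, limma adjusted p = 0.00618). The water channel Aqp1, also abundant in blood vessels, was 2.66-fold lower (-1.41 ± 0.15, adjusted p = 0.00368) and the carbonic anhydrase Car14 1.92-fold lower (-0.94 ± 0.147, adjusted p = 0.0108), and the cell cycle gene Ccnd1 was higher by 0.83 ± 0.103 (adjusted p = 0.00553). Without basal replicate 1 or 2 or without non-basal replicate 2 or 3, 1 gene was higher and 3 were lower, and with both outlying arrays left out 3 were higher and 8 lower. The fibroblast and endothelial marker values given above apply to these genes on the same arrays, and their part was not tested.

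**Figure D4:**
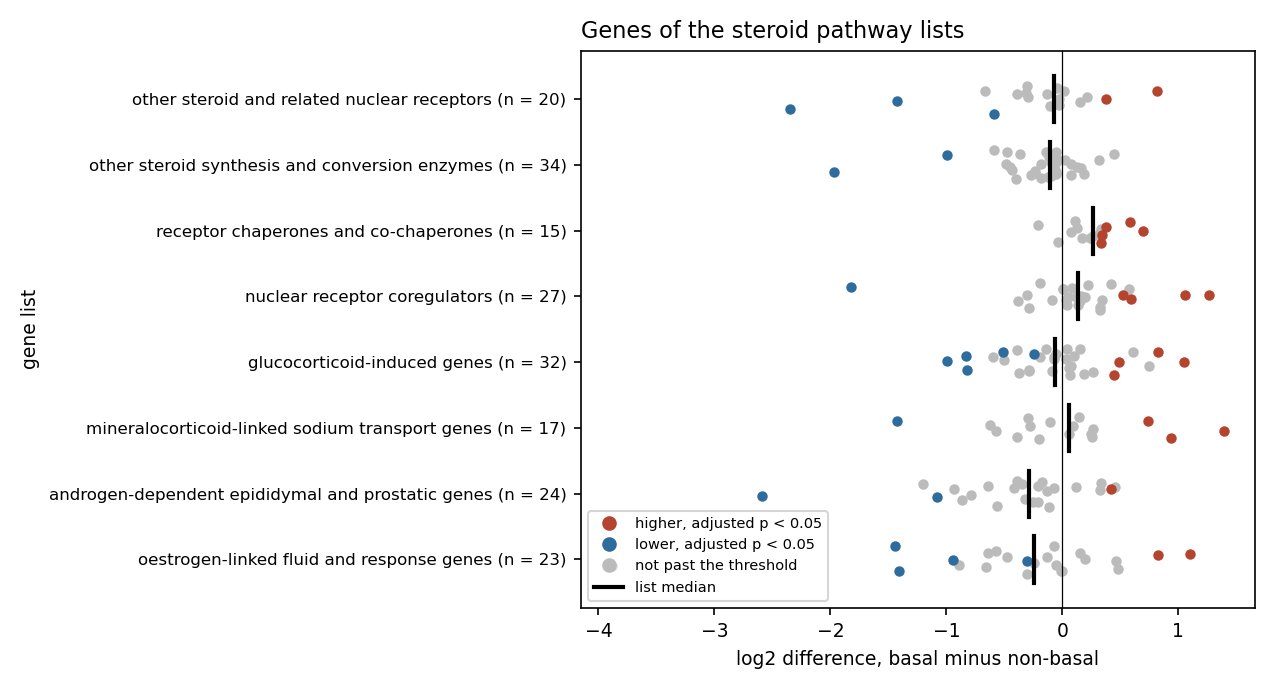
Log2 difference, basal minus non-basal (horizontal axis), of every measured gene of the 8 pathway lists. Each point is a gene, red or blue where limma's adjusted p was under 0.05 and grey otherwise, and black bars are list medians, which run from -0.29 for androgen-dependent genes to 0.27 for receptor chaperones.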

How the data were processed

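The authors deposited log2 expression values of 36685 probe sets on 6 arrays, which the submitters' processing notes credit to RMA and to Affymetrix Expression Console. Versions, the library of probe sets and the build are not given in the sources used here. RMA matches probe distributions between arrays, so a shift shared by most genes would be removed, and it compresses differences of dim probe sets. Values ran from 1.46 to 14.33, as log2 values do.

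Probe sets were named through GEO's platform annotation. Of them 18511 carried 1 symbol, 575 carried several and 17599 were unnamed here. Of several probe sets for 1 gene, that of highest mean was kept, which gave 18166 genes, with no filter on dim values. Differences were fitted across all genes in limma 3.58.1 (lmFit, then eBayes; R 4.3.3), two-sided, without a block, and adjusted by Benjamini-Hochberg; the threshold was 0.05. Standard errors and 95% intervals are the moderated ones. The fit was tested on simulated data. Pair balances were tested by exact permutation of arrays.

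The members, lists and tests were chosen with earlier results of these data known. Named genes are all members, the up to 4 genes of smallest p in each pathway list, and the 3 closest in profile to each member that passed; Fkbp4, Pgr, Zbtb16, Tsc22d3, Per1, Sgk1, Scnn1a, Scnn1b, H6pd, Srd5a3 and Cyp19a1, and the marker genes Pdgfra, Adipoq, Plin1, Plin4, Slc2a4, Lipe, Pparg and Car3, were named after their values were seen. Same-numbered replicates were not treated as pairs, since their deviations from the fraction means correlated at 0.0278 to 0.0383 over genes.

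Alternatives were a replicate block, quantile normalization, centring on the median, leaving out genes whose higher group mean was under 5 or under 7, a trend of variance on intensity with robust estimation, weights for arrays, averaging a gene's probe sets, fitting every probe set, and dropping 1 array at a time. Dropping the 2 arrays that stood apart, basal replicate 3 with non-basal replicate 1, was chosen after seeing the data.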

Additional observations from a re-analysis of the deposited data

How the results depend on the processing

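Of 111 refits of the 7 members' differences, 97 kept their direction and their side of the threshold. In part this was fixed in advance, since each member had 1 probe set. The replicate block, the filters, the intensity trend, the averaging of probe sets and the fit of every probe set leave a member's difference unchanged. Under those settings only the adjusted p could move. For Hsd11b1 the difference ranged from -2.55 to -2.02 with 1 array left out and lost its call in 1 of those fits. Esr1 ranged from -1.02 to -0.68 and lost its call in 5 of them, over all probe sets (-0.80, where more features were tested) and without basal replicate 3 and non-basal replicate 1 together (-0.67). Fkbp5 ranged from -0.66 to -0.38 and passed without basal replicate 3, with array weights (-0.53) and without those 2 arrays (-0.55). Nr3c2 ranged from -0.21 to 0.12, with its sign reversed in 3 fits. No other alternative changed a member's call. The number of lower members ranged from 0 to 2 with 1 array left out and was 1 over all probe sets. Under the filter at 7, Esr2 could not be fitted.

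Over all genes, 1401 were higher and 1297 lower. With 1 array left out the numbers ranged from 509 to 2068 and from 542 to 1607. They were 2868 and 2323 with array weights, and 2499 and 2124 without the 2 outlying arrays. With the replicate block they were 982 and 1027, and it changed no member's call. Under it Pgrmc1, Ppid, Hsf1 and Ndrg1 lost their calls (adjusted p = 0.0565, 0.0575, 0.0686 and 0.0773). Higher genes were 2 in place of 5 among chaperones, 1 in place of 4 among glucocorticoid-induced genes, 1 in place of 2 among other receptors and among oestrogen-linked genes, and 0 in place of 1 among androgen-dependent genes, and lower oestrogen-linked genes were 3 in place of 5. No other pathway list's count moved by over 1.5 times under the block. The cause of these changes was not tested. All 30 refits of the pair balances moved by less than 1 SD between arrays, that of Nr3c1 and Nr3c2 ranging from 0.19 to 0.67. Those with the replicate block or centring on the median could not move, since neither changes a mean difference taken within arrays. Only the other refits bear on stability. Of 590 refits of other named genes, 67 lost and 9 gained a call and 0 reversed. Probe sets for Srd5a1 and Srd5a2 were not analysed here, and 3 arrays per fraction limit every statement.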

Other observations

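Hsd11b2 held exactly the same deposited value, 6.9997, on basal replicate 3 and non-basal replicate 1, the 2 arrays that stood apart. Equal values on at least 2 arrays were found for 6408 of the 18166 genes (35.3%) and for 1 of the 7 measured members.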
